A study of Mus musculus with 48 samples.

Results

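The genes of synaptic vesicles and of the machinery that fuses them with the plasma membrane were followed in mouse cerebellum across 14 groups of arrays. Members were chosen by gene symbol alone: synaptotagmins (Syt), synapsins (Syn), synaptogyrins (Syngr), Syp, Sv2, the Snap, Stx and Vamp families, Stxbp, Rab3, Cplx, Napa, Napb, Nsf and Unc13. The rule found 58 genes with 73 probe sets, of 8251 genes that had a probe set with 1 symbol. Of these members, 45 genes with 55 probe sets had a mean signal over all 48 arrays of at least 148.8 and were tested, as were 5639 genes in all. The filter removed 13 member genes: Stx1a, Rab3b, Rab3d, Unc13b, Rab35, Vamp5, Syt5, Syt6, Syt8, Syt9, Syt10, Syt17 and Syngr4. Rab31, Rab33a, Rab33b, Rab34 and Rab35 match Rab3 by spelling and are other Rab proteins, and Snap91 matches Snap but encodes a clathrin adaptor of vesicle recycling. Unc13a, Unc13c, Sv2a, Sv2b and Syn1 are not analysed here, so the module was measured without several of its central genes.

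Synaptic vesicles fuse when a vesicle SNARE protein (synaptobrevin, encoded by Vamp1 and Vamp2) winds around SNAP-25 and a syntaxin on the plasma membrane. Synaptotagmins on the vesicle bind calcium and trigger fusion, complexins clamp and support it, and NSF with the SNAP adaptors (Napa, Napb) takes the complexes apart again. Synapsins tether the reserve vesicles, and in the cerebellum this machinery serves granule cell, Purkinje cell and interneuron terminals alike.

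Each array held cerebellar RNA of 1 mouse. All transgenic lines carried exon 1 of huntingtin, either with 142 glutamines (142Q) or with 18 (18Q), joined to a nuclear exclusion signal (NES) or a nuclear localization signal (NLS). The NES 142Q lines were A39, with 4 transgenic and 4 control mice at 4 months and 3 of each at 10 months, and A61, with 4 of each at 8 months. The NLS 142Q lines were S46, with 4 transgenic and 4 control mice at 3.5 months and 3 of each at 10 months, and S25, with 3 of each at 3 months. Line X50 carried the NLS with 18Q, with 3 transgenic and 3 control mice at 16 months. Controls were nontransgenic, littermates per the series design, and the promoter that drives the transgene is not given in the labels used here. By the same design, lines were profiled when a rotarod deficit first showed, and some again when impairment had advanced. Of the 4 controls of A61, 3 carried a title naming line A39, and the S46 transgenic mice given here as 3.5 months were titled 3 months and described as 3.5. All transgenic S25 mice were male and 3 months old, whereas 2 of their 3 controls were female and 2.5 months old. Of the A39 10-month arrays, 2 transgenic and 1 control were from mice of 10.5 months.

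Signals were the authors' MAS5 intensities on a linear scale, and each array's 2% trimmed mean lay between 500.2 and 500.3. Differences are on the log2(signal + 18.7) scale, transgenic minus control, from 1 limma model over all arrays, and a probe set is called at a Benjamini-Hochberg adjusted p below 0.05 over 7453 probe sets. A61 control 4 (r from -0.185 to 0.021 with the other A61 controls, after each probe set's mean was taken off) and A39 4-month control 4 (-0.11 to 0.054) stood apart from their groups. A61 control 4 was female, whereas all other A61 mice were male. By the deposited array records, A39 4-month control 2 and S46 10-month control 1 were scanned apart from their own groups, each on the day of the other's group. Both animals carry the same code in the labels. Their signals went with their labelled groups, with a mean r of 0.116 for the A39 array (-0.078 with the S46 group) and 0.509 for the S46 array (-0.039 with the A39 group). Markers of Purkinje and granule cells were detected, 8 tested genes of each list. In bulk tissue, fewer cells of a type and less RNA per cell cannot be told apart.

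Few members were called between transgenic and control mice, and those that were came from S25. There 3 of 55 member probe sets were called (5.45%), Snap25 lower and Stx12 and Syt3 higher, against 3.65% of all probe sets, a share close to that of the array as a whole. With 1 array left out, 1 of the calls was left for each S25 mouse except control 3, without which all 3 were. No member was called in the other 6 comparisons. The share of all probe sets called there was 1.58% in A39 at 4 months, 1.89% in A39 at 10 months, 0.255% in A61, 0.0% in S46 at 3.5 months, 0.993% in S46 at 10 months and 0.0268% in X50. At an unadjusted p below 0.05, 5.5% of members and 12.1% of all probe sets passed in A39 at 4 months, 10.9% and 10.9% in A39 at 10 months, 9.1% and 8.7% in A61, and 7.3% and 11.2% in S46 at 3.5 months. The shares of members and of all were 9.1% and 7.5% in S46 at 10 months, 10.9% and 15.2% in S25, and 7.3% and 7.4% in X50, so the members' share was at or near that of the array or below it. Without A39 4-month control 4 or A61 control 4, the arrays that stood apart, no member was called in their comparisons either.

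The module as a whole lay close to no difference in every line. The median log2 difference of its 45 genes was -0.013 in A39 at 4 months, 0.015 in A39 at 10 months, 0.073 in A61, 0.025 in S46 at 3.5 months, 0.038 in S46 at 10 months, -0.032 in S25 and -0.051 in X50. Medians over all tested probe sets ran from -0.006 to 0.01. In S25, 21 of the 45 genes lay above 0 and 24 below, and in A39 at 10 months 24 lay above and 21 below. The 95% intervals of the members' differences reached a median of 0.344 to either side with 4 mice a group and 0.397 with 3.

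**Figure D1:**
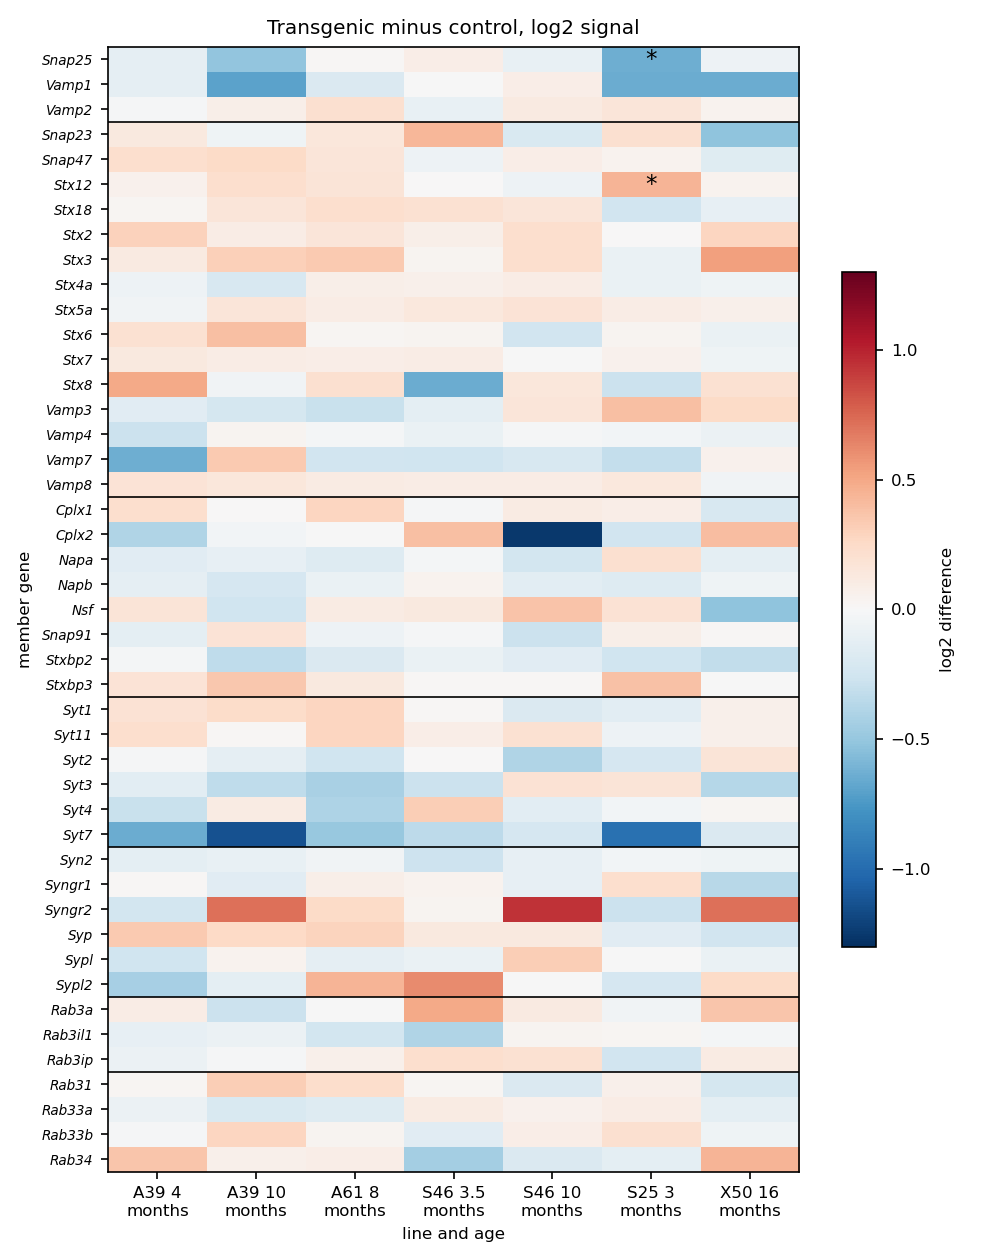
Log2 difference (colour, transgenic minus control) of the 45 tested member genes (rows, by role, each by its probe set of highest mean signal) in the 7 comparisons (columns). Stars mark adjusted p below 0.05: Snap25 and Stx12 in S25. The Syt3 probe set called in S25 is another than the one drawn, so Syt3 has no star.

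Counts of members whose arrays did not overlap between genotypes were also near those of the array. In A39 at 10 months 4 member probe sets were higher and 5 lower in every transgenic array, with 18.2% of all probe sets not overlapping, and in A39 at 4 months 2 were higher and 1 lower (7.3% of all). The counts were 5 higher and 0 lower in A61 (5.97% of all), 1 higher and 0 lower in S46 at 3.5 months (3.26%) and 6 higher and 6 lower in S46 at 10 months (19.6%). In S25 they were 4 higher and 4 lower (18.2% of all), and in X50 1 higher and 6 lower (16.3%). Among the 6 comparisons of 142Q lines, 6 of 45 member genes kept one direction (13.3%), against 16.8% of all probe sets: Stx2, Stxbp3 and Vamp8 (by its brighter probe set) were above 0 in each, and Stxbp2, Syn2 and Syt7 below.

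Snap25 (chr2:136713439-136782428, GRCm38.p6) encodes the plasma membrane SNARE of neurons. In S25 its signal was 17794.0, 12381.5 and 16862.6 in the transgenic mice, against 24150.6, 24394.9 and 23687.7 in their controls. All transgenic arrays lay below all controls, and the difference was -0.64 (SE 0.16, adjusted p = 0.0164). The call was kept in 12 of 15 alternatives (-0.74 to -0.48, adjusted p from 0.00154 to 0.215). It was lost without transgenic mouse 2 (-0.48, adjusted p = 0.167), without control 2 (adjusted p = 0.0525) and when the S25 arrays were fitted alone (adjusted p = 0.215), and it was kept with sex as a term (-0.69, adjusted p = 0.0148).

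In A39 at 10 months Snap25 was 12316.7, 14474.6 and 15479.1 in transgenic mice, against 18894.5, 21158.2 and 20080.6 in controls. Here too no transgenic array reached a control. The difference of -0.51 (SE 0.16, adjusted p = 0.106) was not called, whereas quantile normalization called it (-0.40, adjusted p = 0.0238), as did array weights (-0.49, adjusted p = 0.00465, with a highest adjusted p of 0.489 over its alternatives). At 4 months of the same line, the transgenic arrays spanned 20520.9 to 21997.2 and the controls 16336.2 to 26961.5 (-0.12, adjusted p = 0.803). Under quantile normalization the 4-month difference was -0.37 (adjusted p = 0.0163). The lowest of those controls was control 4, the array that stood apart.

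Snap25 was close between genotypes elsewhere. Transgenic arrays spanned 18919.4 to 25767.9 and controls 17961.8 to 26332.1 in A61 (0.01, adjusted p = 0.99). In S46 they spanned 19376.8 to 26695.6 in transgenic mice and 15568.7 to 24305.9 in controls at 3.5 months, and 16788.4 to 17932.1 in transgenic mice and 18068.7 to 19278.1 in controls at 10 months, the last without overlap. In X50 they spanned 16536.2 to 19058.2 in transgenic mice and 17570.2 to 19520.7 in controls (-0.07, adjusted p = 0.983). Set against S46 at 3.5 months, the S25 difference was lower by -0.72 (SE 0.21, adjusted p = 0.0734), which was not called.

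**Figure D2:**
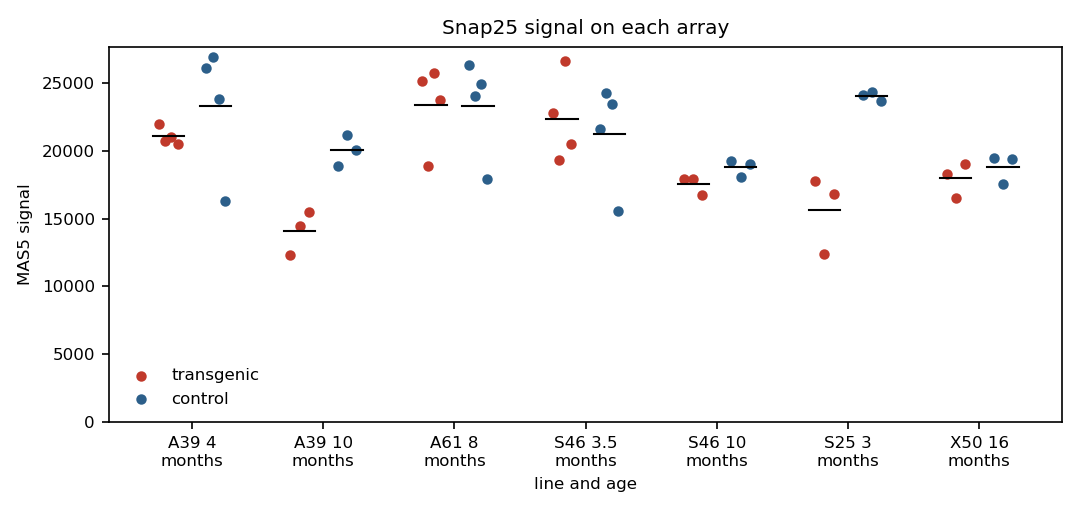
Snap25 signal (MAS5 intensity, linear axis) in each of the 48 mice, with transgenic mice left of their controls in each of the 7 comparisons and a bar at each group mean. The S25 transgenic arrays lie between 12381.5 and 17794.0, all below the S25 controls, and the A39 10-month transgenic arrays lie below their controls as well.

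Cell type markers moved in the same comparisons, counted here as called at an adjusted p below 0.05. In S25, 8 of 8 tested Purkinje cell genes were called lower, with a summed signal of 16536.3 to 17422.9 in transgenic mice and 44391.5 to 49103.0 in controls. Microglial genes were called higher for 6 of 8 tested, with sums of 7734.7 to 11335.2 in transgenic mice and 3699.4 to 4166.8 in controls. Of 8 granule cell genes Cbln1 was called lower in S25, and their sums did not overlap, at 41081.9 to 43147.0 in transgenic mice and 46260.4 to 48848.9 in controls. Of 8 tested astrocyte and Bergmann glia genes 1 was called, Gfap, the astrocyte filament gene, higher at 226.6% of control. Of these 8 genes 5 lay above 0 and 3 below. Their sums overlapped, at 33375.7 to 39350.9 in transgenic mice and 38181.5 to 43228.7 in controls. Of 5 tested interneuron and GABA synthesis genes 1 was called lower, and all 5 lay below 0. Their sums did not overlap, at 7666.8 to 9528.6 in transgenic mice and 12099.7 to 12865.3 in controls. None of 7 tested oligodendrocyte genes was called. The part of these markers in the S25 member results was not tested.

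In A39 at 10 months 7 of 8 Purkinje genes were called lower (20485.0 to 23806.8 in transgenic mice, against 39985.0 to 44493.9 in controls) and all 8 lay below 0. Cbln1 was again the called granule cell gene, with sums of 30754.6 to 36406.1 in transgenic mice and 39489.3 to 45369.4 in controls. Gfap was called higher at 192.1% of control, as were 3 of 8 microglial genes (6213.4 to 7819.9, against 3926.5 to 4463.4 in controls). Of 8 tested astrocyte and Bergmann glia genes, Gfap was the 1 called higher, 1 was called lower, and 5 lay below 0. Their sums did not overlap, at 24858.8 to 27366.7 in transgenic mice and 30635.4 to 30972.1 in controls. The part of these markers in the Snap25 values was not tested. In S46 at 10 months 6 of 8 Purkinje genes were called lower and all 8 lay below 0, with sums of 22265.4 to 26862.4 and 42009.0 to 45201.1 in controls, and Snap25 there differed by -0.10 (adjusted p = 0.991). Purkinje genes were also called lower for 6 of 8 in A39 at 4 months (24092.3 to 28438.5, against 41603.9 to 43110.0 in controls). In A61 3 of 8 were (29535.8 to 35805.4, against 41968.4 to 48043.5). Snap25 differed by -0.12 in A39 at 4 months and by 0.01 in A61. No Purkinje gene was called in S46 at 3.5 months or in X50. The sums of 5 interneuron and GABA synthesis genes were lower in transgenic mice without overlap in every comparison but S46 at 3.5 months. In A39 at 4 months they were 9566.3 to 11847.5, against 14942.3 to 15904.0 in controls. Of 7 tested oligodendrocyte genes, 3 were called lower in A39 at 4 months and 1 in A39 at 10 months. Their 4-month sums were 15242.7 to 18894.3, against 21924.3 to 22422.7 in controls. The part of these lists was not tested.

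The vesicle partners of SNAP-25 are the synaptobrevins. Vamp1 was lower in the S25 transgenic mice, at 747.5, 815.0 and 1058.3, against 1373.9, 1197.9 and 1544.2 in controls, without overlap (-0.65, adjusted p = 0.189). In X50, the line without the long repeat, it was 932.7, 638.2 and 725.6 in transgenic mice and 1485.3, 1075.7 and 1073.0 in controls (-0.65, adjusted p = 0.563). In A39 at 10 months it was 604.8, 1019.3 and 878.1 in transgenic mice and 1814.3, 970.8 and 1352.8 in controls, which overlap (-0.70, adjusted p = 0.23). None of the 3 differences was called. Vamp2, by its brighter probe set, differed by -0.10 to 0.21 and was called in none of the 7 comparisons.

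Among the other SNARE proteins, 15 tested genes, Stx12 alone was called. Stx12 (chr4:132854064-132884458), also known as syntaxin 13, is a SNARE of recycling endosomes. In S25 it was 2138.0, 1687.0 and 1901.8 in transgenic mice, against 1299.4, 1287.0 and 1624.5 in controls. Each transgenic array lay above each control, by little for the nearest pair (0.44, SE 0.13, adjusted p = 0.0478). The call lay at the threshold: it was kept in 5 of 15 alternatives, over which the adjusted p ran between 0.0239 and 0.362, and with sex as a term the difference was 0.37 (adjusted p = 0.154). In the other lines the largest difference was 0.22, in A39 at 10 months (adjusted p = 0.595).

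Vamp4, a SNARE of the trans-Golgi network and endosomes, did not overlap between genotypes, by the dimmer of its probe sets, in either NLS 142Q line. It was 729.1, 610.0 and 631.2 in S25 transgenic mice, against 485.0, 464.6 and 506.7 in controls (0.42, adjusted p = 0.0731). In S46 at 3.5 months it was 638.8, 642.9, 532.5 and 619.4 in transgenic mice and 372.8, 516.0, 434.7 and 454.2 in controls (0.44, adjusted p = 0.213), and at 10 months the difference was 0.26 (adjusted p = 0.685). None was called, and the brighter Vamp4 probe set differed by -0.03, -0.08 and -0.02 in those 3 comparisons. In the NES line A61 the dimmer set was 756.5, 870.6, 687.2 and 856.7 in transgenic mice and 716.2, 749.0, 517.7 and 695.4 in controls. In A39 at 10 months it was 861.0, 958.8 and 753.9 in transgenic mice and 668.2, 694.6 and 848.2 in controls. Both NES pairs of groups overlapped and were not called. Vamp7, another endosomal SNARE, was 191.2, 229.0, 168.5 and 221.9 in A39 transgenic mice at 4 months, against 191.1, 328.0, 413.2 and 413.8 in controls (-0.63, adjusted p = 0.21). Stx3, a plasma membrane syntaxin, was 339.1, 361.4 and 334.8 in X50 transgenic mice and 212.5, 276.0 and 213.7 in controls (0.53, adjusted p = 0.558). Neither was called.

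The remaining SNARE genes with the smallest p-values in a comparison were not called. Snap47, a SNAP-25 relative, was 3660.9, 3371.6, 3183.5 and 3261.6 in A39 transgenic mice at 4 months, against 3008.4, 2933.2, 2761.2 and 2852.4 in controls, without overlap (0.22, adjusted p = 0.399). Stx6, a syntaxin of the trans-Golgi network, was 497.8, 465.3 and 730.9 in A39 transgenic mice at 10 months and 492.4, 402.6 and 365.8 in controls (0.39, adjusted p = 0.331). In S46 at 3.5 months, Stx8, an endosomal syntaxin, was 345.1, 333.8, 77.7 and 324.9 in transgenic mice and 369.1, 510.4, 372.7 and 298.1 in controls, which overlap (-0.65, adjusted p = 0.335). Vamp8, a SNARE of late endosomes and secretory granules, was 380.4, 383.5, 465.5 and 295.9 there in transgenic mice and 356.0, 238.0, 173.6 and 267.4 in controls by its dimmer probe set (0.55, adjusted p = 0.299), and the brighter set differed by 0.10.

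Of the regulators of SNARE assembly, Cplx2 had the largest difference. Complexin 2 binds the assembled SNARE complex (chr13:54301964-54383923). In S46 at 10 months it was 2104.0, 1352.1 and 1834.2 in transgenic mice, against 5869.0, 4669.6 and 2661.1 in controls. The groups did not overlap, but the controls ranged widely, and the difference of -1.26 (SE 0.34, adjusted p = 0.0664) was not called. It was called under 4 alternatives: without control 3 (-1.58, adjusted p = 0.024), with quantile normalization (-1.36, adjusted p = 0.0417), with scan day as a random block (-1.32, adjusted p = 0.0433) and with array weights (-1.17, adjusted p = 0.00607), and its highest adjusted p over every alternative run was 0.401. At 3.5 months the same line had 2634.4, 3628.9, 6093.7 and 2086.1 in transgenic mice and 1816.0, 2299.6, 3544.9 and 2730.9 in controls (0.40, adjusted p = 0.64). The change of the difference between the ages was -1.65 (adjusted p = 0.113). Its relative Cplx1 differed by -0.21 to 0.28 over the 7 comparisons, with none called.

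Nsf, the ATPase that separates used SNARE complexes, was lower in X50: 2391.2, 2203.1 and 2035.9 in transgenic mice, against 3445.3, 2863.4 and 3216.3 in controls. The arrays did not overlap, and the difference was not called (-0.52, SE 0.17, adjusted p = 0.515). In S46 at 10 months it went the other way, with 2283.5, 2080.8 and 2450.1 in transgenic mice and 2218.4, 1338.4 and 1789.2 in controls (0.37, adjusted p = 0.57). The difference between these changes, 0.89 for S46 minus X50, was not called (adjusted p = 0.0842). The adaptors that load it, Napa and Napb, differed by -0.24 to 0.21 and by -0.22 to 0.05. Stxbp2, a syntaxin-binding protein found mainly outside neurons, differed by -0.32 in X50 (adjusted p = 0.696) and Stxbp2 was lowest against its controls in A39 at 10 months (-0.33, adjusted p = 0.455).

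Synaptotagmins hold the calcium sensors of release. Syt3 (chr7:44382773-44400030), a sensor of slow release and of receptor recycling, was called higher in S25 by 1 of its probe sets, at 153.8, 164.2 and 144.6 in transgenic mice and 42.3, 108.4 and 111.4 in controls (0.78, SE 0.23, adjusted p = 0.0478). These signals lie near the filter value of 148.8 or below it, with every control below. Without control 1, the lowest array, the difference was 0.43 (adjusted p = 0.407). It was called in 4 of 15 alternatives. The brighter Syt3 probe set was 737.4, 833.8 and 779.2 in transgenic mice and 679.3, 834.1 and 590.9 in controls, which overlap (0.17, adjusted p = 0.811). Over the 48 arrays the correlation of the dimmer with the brighter set was 0.283. In S46 at 10 months the dimmer set differed by -0.53 (adjusted p = 0.529), the other way from S25, and in A61 the brighter set differed by -0.43 (adjusted p = 0.505).

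**Figure D3:**
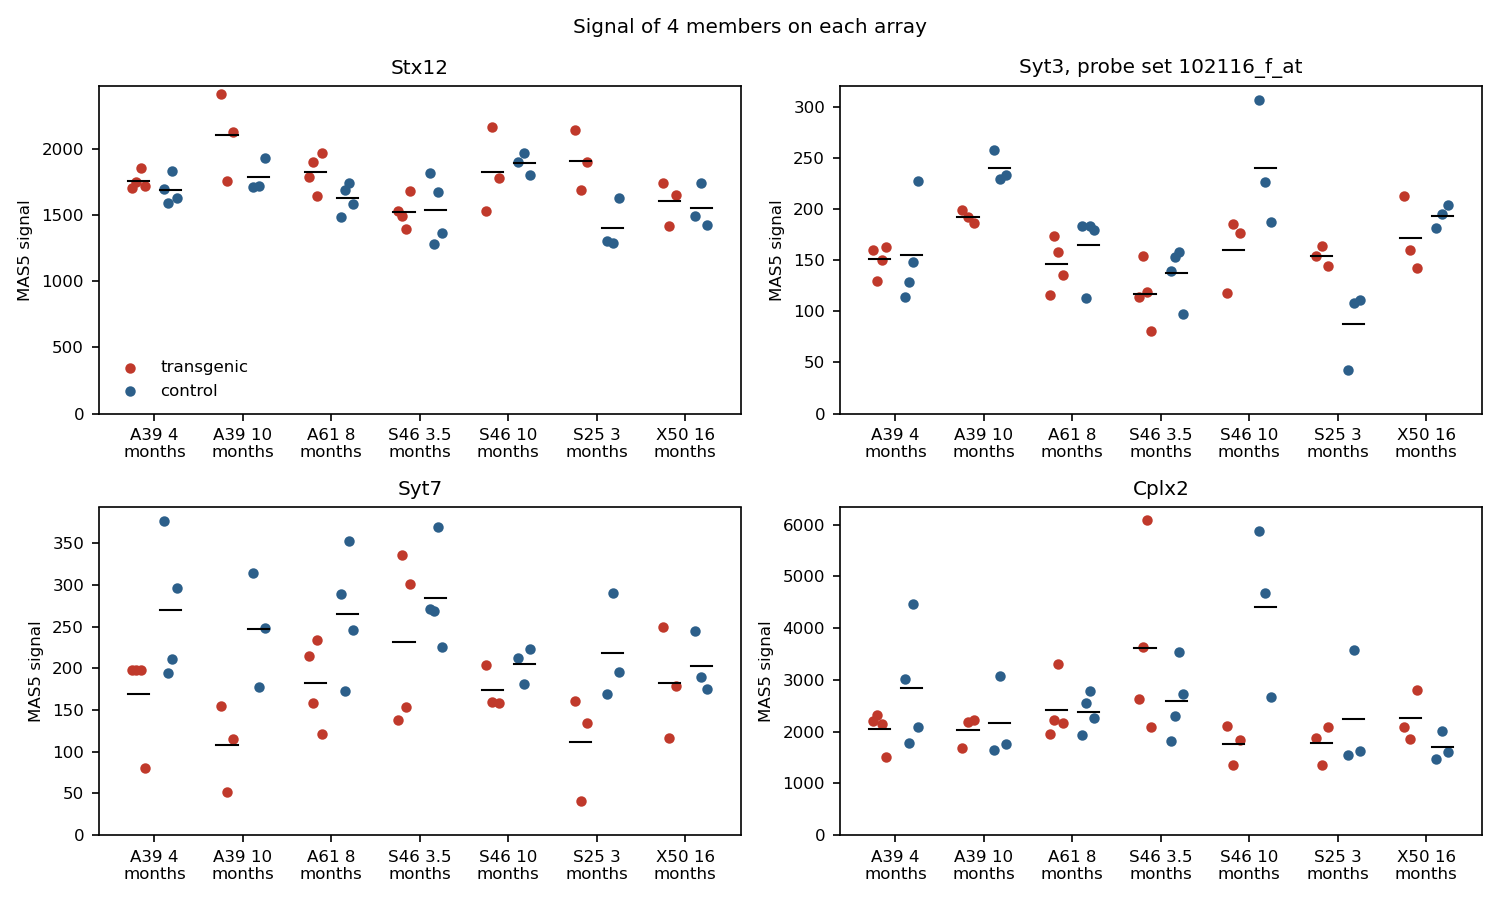
Signal (MAS5 intensity, linear axes) of Stx12, Syt3 (the probe set called in S25), Syt7 and Cplx2 in each mouse, transgenic left of control in each comparison, with a bar at each group mean. Stx12 and Syt3 are higher in S25 transgenic mice without overlap, Syt7 has a mean below its controls' in all 7 comparisons, and Cplx2 separates in S46 at 10 months.

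Syt7, a high-affinity calcium sensor tied to asynchronous release and facilitation, was below its controls in all 7 comparisons and called in none. In A39 at 10 months it was 155.2, 51.7 and 115.6 in transgenic mice, against 314.3, 176.9 and 248.5 in controls (-1.14, SE 0.37, adjusted p = 0.117). In S25 it was 160.6, 41.1 and 134.2 in transgenic mice and 168.9, 290.4 and 195.0 in controls (-0.97, adjusted p = 0.145). Neither pair of groups overlapped. With array weights the A39 10-month difference was -1.54 (adjusted p = 0.00111), among 3 members called in that setting, and its highest adjusted p over the alternatives was 0.629. The other differences were -0.65 in A39 at 4 months, -0.50 in A61, -0.34 in S46 at 3.5 months, -0.22 in S46 at 10 months and -0.19 in X50. The 4-month value holds a transgenic mouse at 80.2 beside 3 from 197.6 to 198.4.

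Syt1 and Syt2, the fast sensors of neurotransmitter release, were called in no comparison of genotypes. Syt1 differed by -0.19 to 0.28. Syt2 was 3586.2, 2972.7 and 3919.0 in S46 transgenic mice at 10 months, against 4233.0, 4534.0 and 4957.5 in controls, without overlap (-0.39, adjusted p = 0.343). In A61 it differed by -0.25 (adjusted p = 0.581) and in S25 by -0.21 (adjusted p = 0.545). Syt4, a synaptotagmin of secretory organelles, was 747.4, 931.0, 881.2 and 886.1 in A61 transgenic mice and 1074.8, 1100.5, 926.0 and 1525.8 in controls (-0.40, adjusted p = 0.386). Syt11, a sensor-like protein without calcium binding, differed by -0.06 to 0.28.

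Vesicle membrane proteins and synapsins gave no call. Syp encodes synaptophysin, the abundant vesicle membrane protein used as a marker of nerve terminals. In A39 at 4 months it was 2796.9, 2440.9, 2967.9 and 2308.0 in transgenic mice and 2435.0, 2357.7, 2270.5 and 1381.7 in controls (0.34, adjusted p = 0.419), and the lowest value was again control 4. In S25 it was 2662.5, 1538.9 and 2563.7 in transgenic mice and 2219.1, 2597.8 and 2466.8 in controls (-0.14, adjusted p = 0.823), so the terminals' marker overlapped there. Syn2, a synapsin, was below its controls in all 7 comparisons by -0.27 to -0.03. Syngr2, a synaptogyrin found mainly outside neurons, was 300.6, 162.6 and 211.9 in S46 transgenic mice at 10 months and 77.2, 114.4 and 128.6 in controls (0.94, adjusted p = 0.5). It was likewise 166.9, 249.6 and 138.0 in A39 transgenic mice at 10 months, against 85.5, 131.1 and 94.1 in controls (0.72, adjusted p = 0.544). Neither pair of groups overlapped. Syngr2 also differed by 0.71 in X50, the line without the long repeat, and by -0.28 in S25. The X50 signals were 348.4, 331.5 and 255.3 in transgenic mice and 190.0, 110.1 and 278.5 in controls, which overlap. Of 4 tested choroid plexus genes none was called in these comparisons. Their median differences were 1.05 in S46 and 0.64 in A39 at 10 months, 0.48 in X50 and 0.85 in S25. In S46 at 10 months their sums did not overlap, at 7006.7 to 9063.4 in transgenic mice and 3244.8 to 4237.9 in controls. The part of these markers in the Syngr2 values was not tested. Syngr1, the neuronal synaptogyrin, differed by -0.36 in X50 (adjusted p = 0.663) and by -0.15 to 0.22 in the other lines.

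Rab3a, the GTPase that tethers vesicles at the active zone, varied widely between mice of 1 group: it was 487.5, 346.2, 1211.5 and 700.3 in S46 transgenic mice at 3.5 months and 268.6, 259.5, 713.3 and 693.2 in controls. Its differences ran from -0.28 to 0.49 and none was called. Rab31, a trans-Golgi Rab matched by spelling, was 585.2, 594.6 and 716.4 in A39 transgenic mice at 10 months and 520.4, 468.9 and 519.3 in controls, without overlap (0.32, adjusted p = 0.303), and the dimmer Rab33b probe set differed by -0.22 in S46 at 3.5 months (adjusted p = 0.452). Across the 14 group means, Vamp3, Syngr2 and Sypl2 spanned the most, 1.53, 1.44 and 1.39 on the log2 scale. For each, the highest and lowest groups were scanned on different days, so line, age and scan day cannot be told apart there. The median span was 0.67 for members and 0.72 for all tested probe sets, and the median SD within groups was 0.24 and 0.24.

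Direct tests between the genotype differences called no member. Of all probe sets, 0.0% were called for A61 minus A39 at 4 months, 0.0% for A39 at 10 months minus 4 months, 0.403% for S46 at 10 months minus 3.5 months, 2.03% for S25 minus S46 at 3.5 months, 0.242% for S25 minus A39 at 4 months and 0.51% for S46 at 10 months minus X50. At an unadjusted p below 0.05, 0 of 55 members passed for A61 minus A39 at 4 months (3.9% of all probe sets), 1 for A39 at 10 months minus 4 months (3.5% of all) and 3 for S46 at 10 months minus 3.5 months (6.8% of all). The counts were 5 for S25 minus S46 at 3.5 months (12.8% of all), 4 for S25 minus A39 at 4 months (6.6% of all) and 3 for S46 at 10 months minus X50 (7.6% of all).

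Between the ages of line S46 many members were called, in transgenic and in control mice, and most of them were higher at 10 months. Older minus younger, 17 of 55 member probe sets were called in S46 transgenic mice (16 higher, 1 lower) and 16 in S46 controls (15 higher, 1 lower). These are 30.91% and 29.09% of the members, beside 26.1% and 27.8% of all probe sets, so the members' share was near that of the array. Of these, 13 were called in the same direction in both, which is 76.5% of the transgenic and 81.2% of the control calls. Of all probe sets, 1106 were called higher and 836 lower in transgenic mice and 1169 and 903 in controls. In the transgenic mice of this line the ages differ in scan day and chip lot on every array, so age, scan day and chip lot cannot be told apart. In controls the same holds but for 10-month control 1, whose record gives the chip lot of the 3.5-month arrays and may belong to another array. Its Syt1 signal was 2704.1 and its Napb signal 1924.1, above all 3.5-month controls, and without it 15 members were called in controls. All S46 mice of 10 months were female, whereas transgenic mouse 1 and control 1 of 3.5 months were male. With sex as a term, 16 members were called in S46 transgenic mice and 18 in controls. The age tests were added, and the genes below named, after the levels were seen.

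Syt1 (chr10:108497650-109010980) was 1799.7, 1946.7 and 2290.2 in S46 transgenic mice at 10 months, against 1050.4, 1274.5, 647.5 and 1159.3 at 3.5 months (0.99, SE 0.17, adjusted p = 5.84e-05). In controls it was 2704.1, 1901.1 and 2311.1 at 10 months, against 926.1, 930.0, 1162.4 and 967.9 at 3.5 months (1.19, SE 0.17, adjusted p = 4.4e-06). No older array overlapped a younger one of its genotype. In A39 Syt1 was not called with age (0.28, adjusted p = 0.344 in transgenic mice and 0.22, adjusted p = 0.548 in controls).

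Syt2 (chr1:134646534-134753149) was higher at 10 months as well. Transgenic mice had 3586.2, 2972.7 and 3919.0 at 10 months and 2788.3, 2734.8, 1994.5 and 2444.1 at 3.5 months (0.49, adjusted p = 0.00732). Controls had 4233.0, 4534.0 and 4957.5 at 10 months and 2552.5, 2362.9, 2331.3 and 2604.3 at 3.5 months (0.89, adjusted p = 9.93e-06). The difference of these age changes was not called.

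Napb, the neuronal SNAP adaptor, was 1552.0, 1972.3 and 2087.8 in S46 transgenic mice at 10 months, against 1287.7, 1321.1, 680.8 and 1148.1 at 3.5 months (0.78, adjusted p = 0.000328), and 0.96 higher in controls (adjusted p = 2.41e-05). Its second, dimmer probe set differed by -0.02 and -0.22 and was not called. Snap91, the clathrin adaptor AP180 of synaptic vesicles, was 1337.8, 1601.7 and 1986.3 in transgenic mice at 10 months, against 1075.0, 925.9, 318.4 and 1117.6 at 3.5 months (1.05, adjusted p = 0.000828), and 1.31 higher in controls (adjusted p = 6.41e-05). The 3.5-month transgenic mouse 3 was lowest for Syt1, Syt2, Napb and Snap91, and without it 13 members were called. Without transgenic mouse 3 of the 10-month group 11 were called, and with only the S46 transgenic arrays in the fit 4 were.

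SNARE genes were also among the age calls in both genotypes of S46. Vamp4 differed by 0.67 and 0.85 (0.62 and 0.55 by its brighter probe set, called in both), Stx3 by 0.92 and 0.73, Stx6 by 0.57 and 0.86, Snap47 by 0.55 and 0.40, and Stx7 by 0.29 and 0.39 in transgenic and control mice. Stxbp3 differed by 0.71 in each, and Syn2 by 0.67 in transgenic mice and 0.50 in controls. Vamp2 was called by its dimmer probe set only (0.86 and 1.00), at 1178.9 to 1426.2 in transgenic mice at 10 months, against 656.3 to 777.7 at 3.5 months. Cplx2 was the member called lower in transgenic mice (-0.93, adjusted p = 0.0286), whereas its difference in controls was 0.72 (adjusted p = 0.0884). Stx8 was the member called lower in controls (-0.85, adjusted p = 0.0227).

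**Figure D4:**
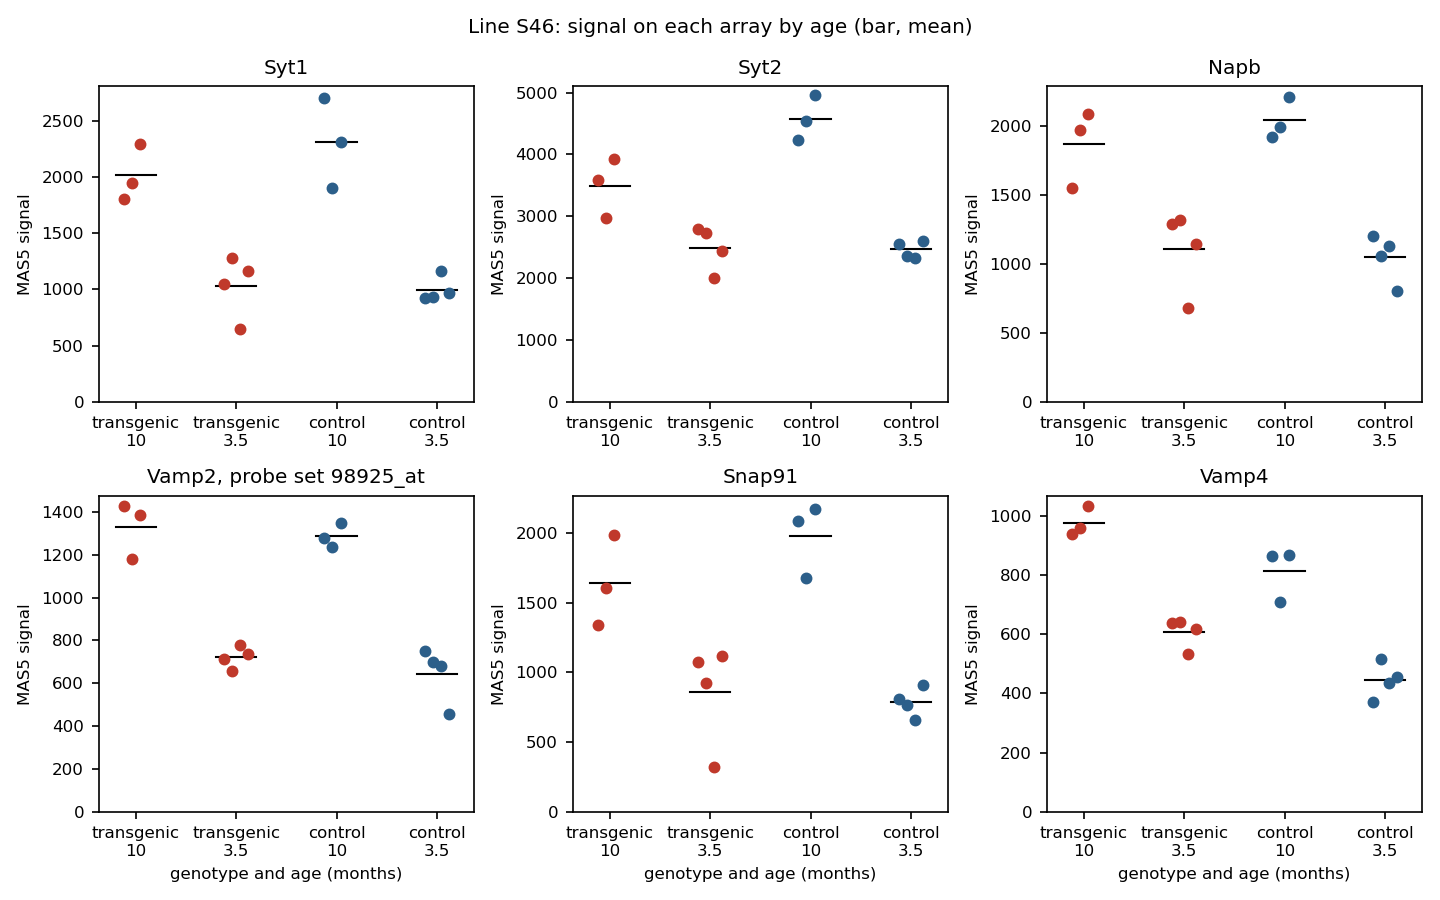
Signal (MAS5 intensity, linear axes) of Syt1, Syt2, Napb, Vamp2 (dimmer probe set), Snap91 and of the dimmer Vamp4 probe set in line S46, with 10 months left of 3.5 months in each genotype and transgenic mice left of controls, 1 point per mouse and a bar at the mean. All 6 are higher at 10 months in both genotypes, and the 3.5-month transgenic mouse 3 is the low point for Syt1, Syt2, Napb and Snap91.

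Cell type markers moved with age in these mice too. In S46 transgenic mice 7 of 8 Purkinje genes were called lower at 10 months (sums of 22265.4 to 26862.4, against 42846.5 to 49601.4), and in S46 controls 1 of 8 was (42009.0 to 45201.1, against 44433.9 to 46872.0). Of the granule cell genes, 2 of 8 were called higher in controls, with sums of 43577.3 to 46298.5 at 10 months and 38389.5 to 40484.2 at 3.5 months. In transgenic mice 2 were called higher and 2 lower, with overlapping sums of 41073.5 to 43851.6 and 41993.5 to 46166.5. Also in transgenic mice, 3 of 8 astrocyte genes were called higher and 1 lower, and 2 of 8 microglial genes were called higher. Of 4 choroid plexus genes 1 was called higher there, with a median difference of 1.91. Their sums overlapped, at 7006.7 to 9063.4 at 10 months and 2386.8 to 7997.8 at 3.5 months. In controls none was called, and the median was -0.32. The part of these markers in the age results was not tested.

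Line A39 gave fewer age calls. In its transgenic mice 2 members were called (3.64%, against 9.61% of all probe sets) and in its controls 1 (1.82%, against 3.84% of all). Snap25 was lower at 10 than at 4 months in transgenic mice (-0.59, SE 0.15, adjusted p = 0.00994), with no overlap of 12316.7 to 15479.1 at 10 months and 20520.9 to 21997.2 at 4 months. Quantile normalization gave -0.12 (adjusted p = 0.483), and leaving out transgenic mouse 1 at 10 months gave -0.49 (adjusted p = 0.0847). In A39 controls Snap25 differed by -0.19 (adjusted p = 0.544). Vamp4 was higher in transgenic mice by its dimmer probe set (0.42, adjusted p = 0.0285). Nsf was higher in controls, at 2886.5, 2577.9 and 3127.8 at 10 months and 1716.9, 1885.8, 1725.4 and 1349.2 at 4 months (0.78, SE 0.16, adjusted p = 0.0025). The A39 10-month controls were all male, whereas 4-month controls 1, 2 and 4 were female. With sex as a term, 1 member was called in A39 controls. Microglial genes were called higher in the older A39 transgenic mice for 6 of 8, with sums of 6213.4 to 7819.9 at 10 months and 4058.1 to 4540.7 at 4 months. Granule cell genes were called lower for 3 of 8 (30754.6 to 36406.1 at 10 months, against 42177.1 to 44939.3 at 4 months) and Purkinje genes for 2 of 8 (20485.0 to 23806.8, against 24092.3 to 28438.5). The part of these markers in the A39 results was not tested. In A39 transgenic mice age, scan day and chip lot cannot be told apart. In controls the record of 4-month control 2 gives the scan day and chip lot of the 10-month arrays and may belong to another array, and its Nsf signal was 1885.8, below all 10-month controls.

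**Figure D5:**
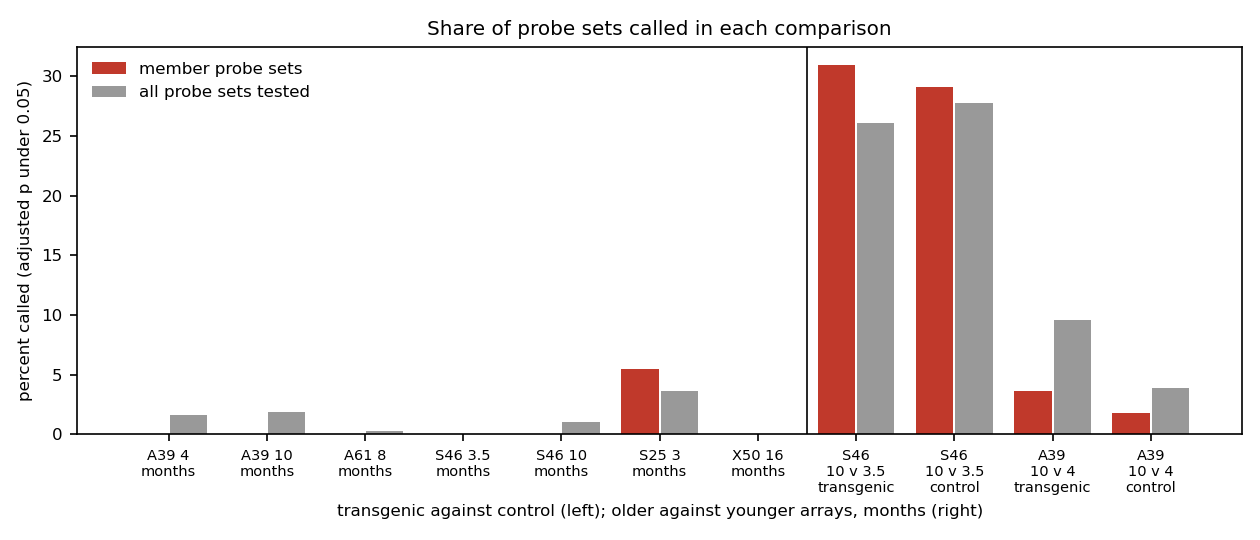
Share (percent) of the 55 member probe sets and of all 7453 tested probe sets called at an adjusted p below 0.05 in the 7 genotype comparisons and the 4 age comparisons. Members reach 5.45% in S25, beside 3.65% of all, and 30.91% and 29.09% in the S46 age comparisons, beside 26.1% and 27.8%.

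Other genes of transmitter release were read from lists of the active zone, endocytosis, vesicle filling and presynaptic calcium channels. Of 14 tested active zone genes, Doc2b, a soluble calcium sensor that promotes spontaneous release, was called lower in S25 (-1.53, adjusted p = 5.83e-06, at 34.7% of control) and in A39 at 10 months (-1.21, adjusted p = 0.000706, at 43.1%). In the other lines it stood at 63.3% of control in A39 at 4 months (adjusted p = 0.0707), 58.7% in A61 (adjusted p = 0.0736), 72.5% in S46 at 3.5 months, 59.4% in S46 at 10 months (adjusted p = 0.112) and 104.1% in X50. Snapin, a protein that binds SNAP-25, was called higher in S25 at 159.6% of control (adjusted p = 0.00451). Of 19 endocytosis genes, Cltb, a clathrin light chain, was called lower in S25 at 77.2% (adjusted p = 0.0355). None of 14 vesicle filling genes and none of 5 calcium channel genes was called in any comparison.

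Promoter windows of 250 bases before the start site came from RefSeq (GRCm38.p6) and matched 49 of the 58 member genes, each by the first start site its table lists. For Syt1, Syt2 and Syt3 that start is not the printed end of the gene: the Syt3 window lies inside the printed gene, and the Syt1 and Syt2 windows run across its 5′ end. The 4 below are shown because Syt1 and Syt2 were higher together with age in S46 and Stx12 and Syt3 were called together in S25. Capitals mark the GC box GGGCGG and TGACG, the core of the cAMP response element, read on both strands. The windows lie at chr10:109010976-109011225 (minus strand) for Syt1, chr1:134646362-134646611 (plus) for Syt2, chr4:132884459-132884708 (minus) for Stx12 and chr7:44383876-44384125 (plus) for Syt3.
Syt1: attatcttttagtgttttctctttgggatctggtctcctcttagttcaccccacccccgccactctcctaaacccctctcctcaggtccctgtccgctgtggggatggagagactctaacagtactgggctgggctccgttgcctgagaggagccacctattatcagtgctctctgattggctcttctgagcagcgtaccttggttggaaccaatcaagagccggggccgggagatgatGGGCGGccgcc
Syt2: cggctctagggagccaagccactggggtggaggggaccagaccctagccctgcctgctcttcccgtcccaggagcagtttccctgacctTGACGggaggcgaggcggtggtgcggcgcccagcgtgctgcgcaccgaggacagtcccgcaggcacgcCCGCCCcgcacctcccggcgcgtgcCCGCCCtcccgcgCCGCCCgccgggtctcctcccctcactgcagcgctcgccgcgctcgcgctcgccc
Stx12: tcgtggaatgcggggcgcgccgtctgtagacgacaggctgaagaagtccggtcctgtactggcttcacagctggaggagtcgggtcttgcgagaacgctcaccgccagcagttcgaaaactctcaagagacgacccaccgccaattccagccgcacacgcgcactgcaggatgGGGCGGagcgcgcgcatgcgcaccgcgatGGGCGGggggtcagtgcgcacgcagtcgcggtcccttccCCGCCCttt
Syt3: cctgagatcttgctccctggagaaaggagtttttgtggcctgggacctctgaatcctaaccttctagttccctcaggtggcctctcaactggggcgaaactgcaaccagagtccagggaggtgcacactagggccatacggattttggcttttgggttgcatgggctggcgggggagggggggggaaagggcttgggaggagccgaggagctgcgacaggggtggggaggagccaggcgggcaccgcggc

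The Syt1 window holds 1 GC box, the Syt2 window 3 and 1 TGACG, the Stx12 window 3, and the Syt3 window none of the motifs searched. The windows are 56.4%, 76.0%, 66.0% and 62.4% G and C, in the same order. GGGCGG lies in 71.4% and TGACG in 28.6% of the 49 member windows, against 32.94% and 17.86% of the windows of all 27025 genes in the table. These are many more than the 8251 genes from which the members came, and shares over the array's genes were not computed. The sets are thus unlike. The full cAMP response element TGACGTCA, which contains TGACG, lies in 2.0% of member windows and 1.62% of all. The RE1 parts TCAGCACC and GGACAGC, bound by the neuronal gene repressor REST, lie in 2.0% and 4.1% of member windows and in 1.27% and 5.29% of all.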

How the data were processed

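Affymetrix MG-U74Av2 arrays with 12488 probe sets measured cerebellar RNA of 48 mice, each on its own array. The deposited intensity values are MAS5 signals on a linear scale, per the submitters' processing notes, which give no version. The authors had scaled the arrays to 1 level, since the 2% trimmed mean was 500.2 to 500.3 in each. The deposited array records (unit other: text fields) named 6 scan days, and 2 lots of chips. Detection calls were left unused. Depth does not apply, and the number of arrays limits the precision.

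After scaling all arrays to the same trimmed mean, log2 was taken of signal plus 18.7, which is the 10th percentile of the values. Tests ran on the 7453 probe sets with a mean signal of at least 148.8, the 40th percentile of the means. A limma 3.58.1 model (R 4.3.3; lmFit, eBayes) gave each of 14 groups a mean, with 34 residual and 3.73 prior degrees of freedom. Tests were two-sided, with Benjamini-Hochberg adjustment within each contrast. The script was tested on simulated data. P-values measure the spread between mice.

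Groups came from titles and descriptions. Gene names are those of the platform annotation, and 66 control probe sets were left out of the tests. Members and gene lists were chosen with earlier results of these data known. Named were the called members, the core neuronal genes of the module, the 5 members of smallest p in a comparison without a call, and the 3 of widest range over groups. A gene with several probe sets is given by the one of highest mean signal unless stated. Age contrasts and the genes named from them were added after seeing the data. The alternatives were a pseudocount of 64, no filter, quantile normalization, sex or scan day as a term, scan day as a random block, array weights, a replicate block, the arrays of a comparison alone and each array left out.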

Additional observations from a re-analysis of the deposited data

Results flagged for a closer look

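Groups of 4 mice were searched for an array far from the other 3, by the gap to its nearest neighbour over the whole range, with 0.829 as the limit. Over 33 named probe sets this made 198 groups, of which 12 passed, and chance alone passes about 1 in 20.

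In A39 at 4 months, transgenic mouse 4 had 80.2 for Syt7 beside 197.6 to 198.4 in the others, and 1015.5 for Syn2 beside 1435.8 to 1504.4. Control 4 of that age, the array that stood apart from its group, had 1381.7 for Syp beside 2270.5 to 2435.0, 1453.3 for Syt4 beside 972.3 to 1003.7, and 259.2 for Vamp8 beside 355.9 to 365.0.

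In A61, transgenic mouse 1 had 9673.1 for Vamp2 beside 8832.2 to 8967.6, and transgenic mouse 2 had 1990.5 for Syt11 beside 1699.5 to 1718.3. Control 4, the other array that stood apart, had 6343.8 for Vamp2 beside 8219.5 to 8645.9. Control 2 had 1452.4 for Napb beside 1677.8 to 1714.6 and 112.8 for the dimmer Syt3 probe set beside 179.9 to 183.4. Control 3 had 520.5 for Rab31 beside 604.9 to 619.0.

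In S46 at 3.5 months, transgenic mouse 3 had 77.7 for Stx8 beside 324.9 to 345.1.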

How the results depend on the processing

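No direction of a called member turned under any setting run. Counts of called members moved as follows. In S25 the 3 calls became 2 with a pseudocount of 64, 2 with scan day as a random block, 2 with scan day as a fixed term, 1 without the filter, 1 with sex as a term, 1 with array weights, 1 with the replicate block and 0 with the S25 arrays alone, and 1 to 3 with an array left out. In A39 at 4 months the count of 0 became 1 with quantile normalization and 1 with array weights (0 to 1 with an array left out). In A39 at 10 months it became 1 with quantile normalization and 3 with array weights. In S46 at 10 months it became 1 with quantile normalization, 1 with scan day as a random block and 2 with array weights (0 to 1 with an array left out). The difference of S46 at 10 months minus X50 became 2 with array weights (0 to 1 with an array left out). With an array left out, S46 at 10 minus 3.5 months gave 0 to 1 and S25 minus S46 at 3.5 months 0 to 2. The counts in A61, S46 at 3.5 months and X50 stayed at 0 in every setting run, among them A61 without the 3 controls titled A39, and taking the mean of all probe sets of a gene gave module medians of -0.051 to 0.074.

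For age, chosen after seeing the data, S46 transgenic mice gave 4 with their arrays alone and 11 to 17 with an array left out. S46 controls gave 12 with their arrays alone and 13 to 18 with an array left out. A39 transgenic mice gave 1 without the filter, 1 with quantile normalization, 6 with scan day as a random block, 13 with array weights, 1 with their arrays alone and 0 to 3 with an array left out. A39 controls gave 2 with quantile normalization, 2 with the random block, 4 with array weights, 0 alone and 1 to 2 with an array left out. The cause was not tested. The scan-day settings used the array records as deposited, in which 2 control arrays may be exchanged. As a random block, scan day had a consensus correlation of -0.071. Age and scan day change together in the transgenic mice of A39 and S46, so this block cannot tell them apart.

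Replicate numbers are shared between genotypes, but in no comparison did every same-numbered pair deviate together (r above 0.1): over 24 pairs r ran from -0.343 to 0.153, and 6 were above 0.1, 3 of them among the 4 pairs of A39 at 4 months. The replicate block changed only the S25 count, which was 1 with the block. Detection calls were not used, so signal over background limits the dim probe sets, such as the called one of Syt3, in a way not assessed here.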
